A study of Homo sapiens with 16 samples.

Results

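The MYC, MAX and MXD network is the family of basic helix-loop-helix leucine zipper transcription factors that share the partner MAX. Its 10 members here, MYC, MYCN, MYCL, MAX, MXI1, MXD3, MXD4, MNT, MGA and MLX, were the rows of both deposited tables whose Ensembl gene identifier maps to these symbols, 10 of 26410 genes. The study asked how the ion channel TRPM2 shapes proliferation and doxorubicin sensitivity of SH-SY5Y, a human neuroblastoma cell line, and sequenced poly(A) RNA in 16 libraries. Doxorubicin is a chemotherapy drug that traps topoisomerase II and damages DNA. The 4 groups were scrambled control (Scr) cells without treatment, Scr cells after 24 h of doxorubicin, TRPM2 KO cells without treatment and TRPM2 KO cells after 24 h of doxorubicin, with 4 libraries each. The sample labels give 0.3 µM doxorubicin, and the design text of the series gives 3 µM. All cells, controls included, had been co-transfected with a donor vector carrying GFP and puromycin markers, selected in puromycin and grown from single cells. Each genotype was represented by 2 clones (KO11 and KO28, Scr13 and Scr16) with 2 replicates per clone and treatment. A genotype is therefore known here from 2 clones, and the p-values measure the spread between libraries, of which those of 1 clone share their origin.

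Values are given as normalized CPM, reads scaled to a common library size with a normalization factor for each library. Library size was between 10481177 reads (Scr16 with doxorubicin, replicate 1) and 25086085 reads (Scr13 untreated, replicate 1), with a median of 16037366.5. At this depth 3 reads, the floor used for detection, correspond to 0.118 to 0.285 normalized CPM. Every member stood far above it, from 46 reads for MYCL to 4304 reads for MGA. In these bulk libraries, fewer cells that express a gene and less RNA per cell cannot be told apart.

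The level of TRPM2 went against the labels. The untreated libraries labelled TRPM2 KO held 1.93 and 2.23 (KO11) and 1.41 and 2.19 (KO28) normalized CPM of TRPM2. The untreated Scr libraries held 0.118 and 0.115 (Scr13) and 0 and 0 (Scr16), so the groups did not overlap. After doxorubicin, the libraries labelled TRPM2 KO held 0.658 to 1.83 and the Scr libraries 0.0594 to 1.33 normalized CPM. The methods describe a deletion at the start of the coding sequence with a frameshift of the rest, and the deposited values cover the whole gene, so they do not check the deletion itself. The paper states that the cells were authenticated with RT-PCR and Western blotting. By RT-qPCR it reports more p21 (CDKN1A) RNA and less PLK1, E2F1 and E2F2 RNA in knockout cells after doxorubicin, among other genes. Against treated Scr, the treated libraries labelled TRPM2 KO had log2 fold changes of 1.13 (CDKN1A), -0.69 (PLK1) and -0.41 (E2F2). E2F1 was tested in the same comparison and did not pass after adjustment over all genes tested. The other genes of that RT-qPCR assay are not given here. An exchange of labels was not tested. Genotypes are accordingly named by their library label throughout.

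As background, MYC, MYCN and MYCL bind DNA as dimers with MAX, typically at the E-box CACGTG, and activate genes for ribosome production, metabolism and cell division. MXI1, MXD3, MXD4 and MNT compete for MAX and for the same sites and recruit SIN3 and histone deacetylases, which repress transcription. MGA is a very large MAX partner in a Polycomb repressor complex (PRC1.6), and MLX links this network to the glucose-sensing factors MondoA (MLXIP) and ChREBP (MLXIPL). In neuroblastoma, amplification of MYCN marks high-risk tumors. SH-SY5Y is known as a line without that amplification, in which MYC is the main family member.

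The cell state was checked on marker genes. Of 14 markers of adrenergic neuroblastoma cells, 13 were abundant enough to test in each comparison, and TH, the enzyme that starts catecholamine synthesis, was not, with at most 18 reads in any library. Their summed level was 7951 to 9425 normalized CPM over the 16 libraries, with DBH, STMN2 or HAND2 the most abundant. Of 12 markers of mesenchymal or Schwann-like cells in the tables, S100B, a Schwann cell marker, was too low to be tested in any comparison, with at most 17 reads in any library. The summed level of these 12 was 720.2 to 999 normalized CPM in the 8 libraries labelled TRPM2 KO and 419.5 to 759 in the 8 Scr libraries, and only Scr13 untreated replicate 1 of the Scr libraries lay above the lowest of the former. The most abundant of them was VIM, an intermediate filament protein, in each library labelled TRPM2 KO and in Scr13 untreated replicate 1, and TWIST1 in the other 7 Scr libraries. YAP1, FN1, COL1A1 and VIM were called higher in the libraries labelled TRPM2 KO under both treatments, and TWIST1 lower. These markers move with genotype beside every comparison of genotypes below, and their part in those results was not tested.

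Promoter sequence is shown for 3 of the members called in some comparison whose stretch before the start holds one of the motifs searched: MYCN, called between treated genotypes, and MXD4 and MNT, repressors called higher after doxorubicin in one or the other genotype. MXI1, also called in both ways, had no match in its listed promoters and is not shown. The sequences are from RefSeq (GRCh38.p14) and begin 250 bases before the annotated start of transcription. They end before the first base of the gene in GENCODE 29 or after 150 bases, whichever came first. The E-box CACGTG, which reads the same on both strands, and 4 forms of the E2F site, TTTCCCGC, TTTCGCGC, TTTGCCGC and TTTGGCGC, were searched on both strands, and matches are in capitals.
MYCN: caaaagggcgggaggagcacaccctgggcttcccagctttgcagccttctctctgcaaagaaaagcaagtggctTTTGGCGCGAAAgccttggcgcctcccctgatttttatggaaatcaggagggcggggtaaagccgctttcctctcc
MXD4: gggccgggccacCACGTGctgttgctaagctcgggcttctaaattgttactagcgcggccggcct
MNT: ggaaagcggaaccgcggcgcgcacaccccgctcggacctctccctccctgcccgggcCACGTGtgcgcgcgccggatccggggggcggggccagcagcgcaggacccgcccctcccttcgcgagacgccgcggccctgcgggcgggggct

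The MYCN stretch lies at chr2:15940300-15940449 on the plus strand. Its capitals hold 2 overlapping E2F matches, TTTGGCGC from position -176 and, on the other strand, TTTCGCGC (read as GCGCGAAA) from position -172. The MXD4 stretch is chr4:2262295-2262359 and that of MNT chr17:2401161-2401310, both on the minus strand, with an E-box from position -238 and -193. Over all 14 promoters (300 bases, 250 before and 50 after each start) that the table lists for 9 of the members, the E-box occurred in 3, those of MXD4, MNT and MLX, and an E2F form in 2, those of MYCN and of 1 start of MGA. Of all 35116 promoters of this length, 7.26% held the E-box and 3.31% any of the 4 E2F forms. These matches describe the letters of the sequence and were not measured as binding sites.

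Levels of different genes were compared per kilobase of exon. Over the 16 libraries, MXI1 had the highest mean level of the members, 19.9 ± 2.62 normalized CPM per kb (SD), followed by MXD4 with 17.1 ± 2.38, MYC with 14.97 ± 5.53 and MAX with 14.6 ± 1.37. This order holds for the mean over all groups, since the level of MYC per kb differed with treatment: it was 19.0 ± 3.93 and 20.4 ± 1.51 in the untreated Scr libraries and those labelled TRPM2 KO (SD, n = 4), where MXI1 was at 17.8 ± 1.38 and 18.7 ± 0.521. The differences between neighbours among these 4 were smaller than the sum of their SDs. By annotation (GRCh38, GENCODE 29), all 10 are protein-coding genes, at chr2:15940564-15947007 (MYCN), chr1:39895426-39902256 (MYCL), chr14:65006174-65102695 (MAX), chr10:110207605-110287365 (MXI1), chr5:177301461-177312757 (MXD3), chr4:2247432-2262294 (MXD4), chr17:2384060-2401118 (MNT), chr15:41621224-41773081 (MGA), chr17:42567068-42573239 (MLX) and on chromosome 8 (MYC). MLX (10.9 ± 0.938), MGA (9.63 ± 1.09) and MNT (8.00 ± 1.14) formed a second series in which neighbours did not differ beyond their spread. MYCN and MXD3 lay at 5.13 ± 1.37 and 5.07 ± 1.38, below MNT by more than the spread, and MYCL was lowest with 0.946 ± 0.262. The SD of MYC was the widest of the 10.

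**Figure D1:**
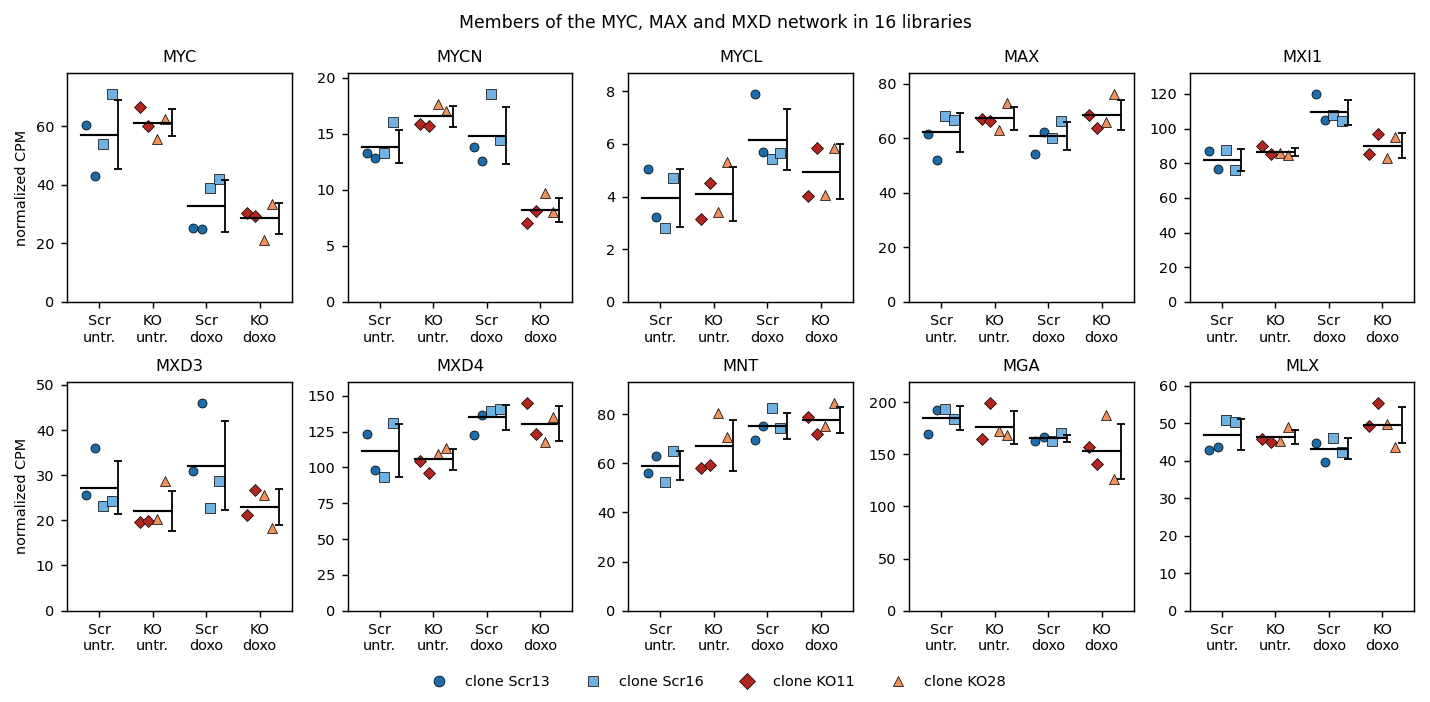
Normalized CPM (vertical axis, from 0) of each of the 10 members in the 16 libraries, grouped on the horizontal axis by label and treatment (untr., untreated; doxo, doxorubicin), with the clone shown by symbol, the group mean by a horizontal line and the SD by an error bar. MYC lies lower in all 8 doxorubicin libraries (21.1 to 42.1) than in all 8 untreated ones (43.0 to 71.1), and MYCN lies at 7.04 to 9.68 in the doxorubicin libraries labelled TRPM2 KO against 12.6 to 18.5 in all the others.

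MYC was lower after doxorubicin in the clones of both genotypes. The untreated Scr libraries held 60.6 and 43.0 (Scr13) and 53.9 and 71.1 (Scr16) normalized CPM of MYC, and the doxorubicin Scr libraries 25.2 and 25.0 (Scr13) and 38.9 and 42.1 (Scr16). The untreated libraries labelled TRPM2 KO held 66.6 and 60.1 (KO11) and 55.8 and 62.5 (KO28), and those with doxorubicin 30.3 and 29.3 (KO11) and 21.1 and 33.5 (KO28). No doxorubicin library reached the lowest untreated library, though the gap in the Scr cells was narrow, between 42.1 and 43.0. MYC fell by 0.80 on the log2 scale in the Scr cells (SE 0.127, limma adjusted p = 0.000331) and by 1.09 in the cells labelled TRPM2 KO (SE 0.118, limma adjusted p = 1.33e-07), where the model for treatment is a limma fit on log2(normalized CPM + 1) with clone as a term (none between genotypes) and Benjamini-Hochberg adjustment over all genes tested. By clone, the log2 difference between the mean levels was -0.99 for Scr13, -0.60 for Scr16, -1.06 for KO11 and -1.12 for KO28. In Scr16 alone, without Scr13, the fall did not pass the threshold (limma adjusted p = 0.0966).

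Between genotypes, no difference in MYC passed the test. The log2 difference of the libraries labelled TRPM2 KO from Scr was 0.12 untreated (SE 0.119, limma adjusted p = 0.751) and -0.17 after doxorubicin (SE 0.168, limma adjusted p = 0.633). The treated difference of MYC depended on the Scr clone, from -0.51 without Scr13 to 0.16 without Scr16. The log2 difference between the responses of the genotypes was -0.29 (SE 0.183, limma adjusted p = 0.718). The untreated Scr groups of MYC spanned those of the libraries labelled TRPM2 KO, and the treated groups overlapped.

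MYCN, the family member that drives high-risk neuroblastoma when amplified, differed between genotypes after doxorubicin. The doxorubicin libraries labelled TRPM2 KO held 7.04 and 8.06 (KO11) and 9.68 and 8.01 (KO28) normalized CPM, behind which stand 110 to 148 reads. The doxorubicin Scr libraries held 13.8 and 12.6 (Scr13) and 18.5 and 14.4 (Scr16). The untreated libraries held 15.9 and 15.7 (KO11), 17.6 and 17.0 (KO28), 13.3 and 12.8 (Scr13) and 13.3 and 16.0 (Scr16). The 4 treated libraries labelled TRPM2 KO were thus the lowest of the 16, and the other 12 overlapped. MYCN was lower in the libraries labelled TRPM2 KO than in Scr after doxorubicin by 0.78 on the log2 scale (log2 fold change -0.78, SE 0.183, limma adjusted p = 0.00774), and within the cells labelled TRPM2 KO it fell by 0.94 with the drug (SE 0.165, limma adjusted p = 0.000146). In the Scr cells its log2 difference with the drug was 0.08 (SE 0.158, limma adjusted p = 0.793), and between untreated genotypes 0.25 (SE 0.143, limma adjusted p = 0.486).

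The difference between these responses of MYCN was put to an interaction test of genotype with doxorubicin over the 16 libraries. It was -1.02 on the log2 scale (SE 0.220, unadjusted p = 6.54e-05 in limma) and did not pass after adjustment over 15325 genes (limma adjusted p = 0.0771). On the recovered reads it passed in edgeR's quasi-likelihood test (adjusted p = 0.0473) and in DESeq2 (adjusted p = 0.000773). The call of MYCN between treated genotypes was lost without KO11 (limma adjusted p = 0.152) and without Scr16 (limma adjusted p = 0.0694). Its log2 differences lay between -0.92 and -0.63 over the clones left out. These fits have fewer libraries: over all genes, 1266 were called with all clones, 510 without KO11 and 1070 without Scr16. By clone, MYCN moved with the drug by -0.98 in KO11 and -0.90 in KO28, and by 0.01 in Scr13 and 0.16 in Scr16. MYCNOS, the antisense gene that overlaps MYCN, was at 0 to 0.665 normalized CPM. Reads in the overlap cannot be told apart if strand was not used in counting, which is not given in the sources used here.

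MYCL, the third family member, was at 2.82 to 5.32 normalized CPM in the 8 untreated libraries. After doxorubicin it was at 7.90 and 5.68 (Scr13), 5.42 and 5.65 (Scr16), 4.03 and 5.86 (KO11) and 4.05 and 5.86 (KO28). The treated Scr libraries lay above the untreated ones without overlap, by a log2 difference of 0.55 that did not pass (SE 0.234, limma adjusted p = 0.143). None of the other comparisons of MYCL passed, with log2 differences between -0.32 and 0.23.

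MAX, the shared partner, passed none of these comparisons. Its values spanned 51.9 to 76.2 normalized CPM over the 16 libraries, and its groups overlapped in all 4 comparisons of groups. The log2 differences of MAX with doxorubicin were -0.03 in Scr (SE 0.0916) and 0.03 in the cells labelled TRPM2 KO (SE 0.0881), and those between genotypes were 0.12 untreated (SE 0.0953) and 0.17 treated (SE 0.0930). The limma adjusted p of the 4 lay between 0.317 and 0.897. The annotation of MAX overlaps FNTB on the other strand.

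Among the repressors, MXI1 responded in the Scr cells. Untreated, it was at 87.2 and 76.7 (Scr13) and 87.6 and 75.9 (Scr16) normalized CPM, and after doxorubicin at 119.9 and 105 (Scr13) and 108 and 105 (Scr16). All 4 treated Scr libraries lay above all other libraries, since MXI1 in those labelled TRPM2 KO was at 84.6 to 89.9 untreated and at 83.0 to 97.0 treated. MXI1 rose by 0.41 on the log2 scale in the Scr cells (SE 0.0817, limma adjusted p = 0.00231), against a log2 difference of 0.06 in the cells labelled TRPM2 KO (SE 0.0816, limma adjusted p = 0.683). After doxorubicin it was lower in the libraries labelled TRPM2 KO than in Scr by 0.28 (log2 fold change -0.28, SE 0.0830, limma adjusted p = 0.0400). That last call was close to the threshold and was lost in 6 of 8 fits that left out 1 library, with limma adjusted p up to 0.145, without any 1 of the 4 clones (limma adjusted p 0.0567 to 0.249), and in the fit on clone means (limma adjusted p = 0.0574). The interaction of MXI1 was -0.35 (SE 0.114, limma adjusted p = 0.331) and did not pass, so its responses in the genotypes were not shown to differ. Without Scr13 the rise in the Scr cells had the same size, 0.38, and did not pass (limma adjusted p = 0.197).

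MNT, a MAX partner that represses widely, rose with doxorubicin in the Scr cells. It was at 56.0, 63.2, 52.3 and 64.9 normalized CPM in the untreated Scr libraries and at 69.4, 75.1, 82.4 and 74.5 in the treated ones. The groups did not overlap, and the log2 fold change was 0.35 (SE 0.0927, limma adjusted p = 0.0182). In the cells labelled TRPM2 KO, MNT was at 58.1 and 59.5 (KO11) and 80.5 and 70.9 (KO28) untreated and at 79.0 and 72.0 (KO11) and 75.1 and 84.7 (KO28) with the drug, where the clones differed before treatment and the groups overlapped. Its log2 difference there was 0.22 (SE 0.0897, limma adjusted p = 0.0943), and without KO28 it was 0.35 and passed (limma adjusted p = 0.0284). The rise of MNT in Scr was lost in 4 of 8 fits without 1 library (limma adjusted p up to 0.0656), and without either clone (0.190 without Scr16 or 0.213 without Scr13, both limma adjusted p).

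MXD4 rose in the cells labelled TRPM2 KO. It was at 104, 96.2, 109 and 114 normalized CPM in their untreated libraries and at 145, 123, 118 and 135 with doxorubicin, with no overlap (log2 fold change 0.30, SE 0.0825, limma adjusted p = 0.0111). In the Scr cells MXD4 was at 124, 98.5, 93.6 and 131 untreated and at 123, 137, 139 and 141 with the drug. The log2 difference was nearly the same there, 0.28 (SE 0.0975, limma adjusted p = 0.0650), but the untreated Scr libraries spread wider and overlapped the treated ones. The interaction of MXD4 was 0.01 (SE 0.133). Without KO11 the rise was 0.18 and did not pass (limma adjusted p = 0.481), and it was also lost in 2 of 8 fits without 1 library (limma adjusted p up to 0.0724).

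MXD3, a repressor usually found in dividing cells, passed no comparison. It was at 25.6, 36.0, 23.1 and 24.3 normalized CPM in the untreated Scr libraries and at 30.8, 46.1, 22.8 and 28.8 in the treated ones. The libraries labelled TRPM2 KO held 19.6, 19.8, 20.3 and 28.7 untreated and 21.2, 26.7, 25.6 and 18.4 with the drug. The log2 differences of genotypes were -0.29 untreated (SE 0.154, limma adjusted p = 0.430) and -0.44 after doxorubicin (SE 0.171, limma adjusted p = 0.137). Without Scr13, whose second replicate was the highest of each Scr group, the treated difference was -0.17 (limma adjusted p = 0.645), and without Scr16 it was -0.71 and passed (limma adjusted p = 0.0120), so the call on MXD3 depended on which Scr clone was compared. MXD3 overlaps RAB24 on its own strand and PRELID1 on the other, so some of its reads may have been split or left out in counting. MXD1, the remaining repressor of this kind and not one of the 10 members, was at 20.2 to 32.0 normalized CPM and passed no comparison (limma adjusted p between 0.164 and 0.897).

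MGA was the longest member, and it had the most reads of the members in each library but KO28 with doxorubicin replicate 2, where MXD4 had 2261 reads and MGA 2110. It was at 169, 193, 194 and 184 normalized CPM in the untreated Scr libraries, at 163, 166, 163 and 170.1 in the treated ones, and, in the libraries labelled TRPM2 KO, at 164, 199.6, 172 and 169 untreated and at 157, 141, 188 and 126 treated. Its log2 differences with doxorubicin were -0.16 in Scr (SE 0.0678, limma adjusted p = 0.148) and -0.21 in the cells labelled TRPM2 KO (SE 0.0950, limma adjusted p = 0.119), and did not pass. The second of these was carried by 3 of the 4 treated libraries, since KO28 replicate 1 with 188 lay above 3 of the untreated libraries. Without that library's partner, KO28 with doxorubicin replicate 2 at 126, the difference was -0.11, and without KO28 with doxorubicin replicate 1 it passed (log2 difference -0.34).

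MLX, the hub of the glucose-sensing arm, was at 39.7 to 55.5 normalized CPM over the 16 libraries and passed no comparison (log2 differences between -0.12 and 0.21, limma adjusted p between 0.312 and 0.965). Its partner MLXIP, not among the 10 members, was at 118 to 155 normalized CPM and also passed none. MLXIPL was barely detected, at 0.341 to 1.84 normalized CPM untreated and 1.01 to 3.41 after doxorubicin, and none of its tests passed, although its groups did not overlap with treatment in the cells labelled TRPM2 KO.

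The targets of the MLX arm were described on a list of 6 genes. TXNIP, an inhibitor of glucose uptake and the best known MondoA target, was at 150, 107, 132 and 141 normalized CPM in the untreated Scr libraries and at 180, 142, 209 and 160 in the treated ones. In the libraries labelled TRPM2 KO it was at 124, 137, 126 and 114 untreated and at 127, 133, 136 and 142 with the drug, so the treated groups touched only at 142. TXNIP rose in the Scr cells (log2 fold change 0.38, SE 0.105, limma adjusted p = 0.0243) and after treatment was lower in those labelled TRPM2 KO than in Scr (log2 fold change -0.35, SE 0.0948, limma adjusted p = 0.0227), and its interaction of -0.27 did not pass (limma adjusted p = 0.611). ARRDC4, a related arrestin and MondoA target, passed none of the 4 comparisons of groups (limma adjusted p between 0.234 and 0.930).

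Counted over the network, 0 of 10 members were called between untreated genotypes, against 4.84% of all genes tested (2.3% higher and 2.54% lower), and 0 had groups that did not overlap, against 9.29%. This count of 0 was the same in edgeR and in DESeq2, and 0 members had an unadjusted limma p below 0.05. After doxorubicin 2 of 10, MYCN and MXI1, were called lower in the libraries labelled TRPM2 KO, against 8.69% of all genes in either direction (4.52% higher and 4.17% lower), and the same 2 had groups that did not overlap, against 13.2%. The median log2 difference of the 10 members was 0.06 untreated and -0.15 after doxorubicin, and that of all genes -0.01 and 0.01. Beside these comparisons of genotype stand the mesenchymal markers, of which 4 of 9 tested were called higher untreated (median 1.05) and 5 of 8 after doxorubicin (median 1.37), with TWIST1 lower in both, and whose part was not tested.

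With doxorubicin, 3 of 10 members were called in the Scr cells, MYC lower and MXI1 and MNT higher, against 12.3% of all genes (7.1% higher and 5.24% lower). In the cells labelled TRPM2 KO 3 of 10 were called, MYC and MYCN lower and MXD4 higher, against 19.6% (11.3% higher and 8.35% lower). The groups did not overlap for 4 members in Scr (MYC, MYCL, MXI1 and MNT) and for 3 in the cells labelled TRPM2 KO (MYC, MYCN and MXD4), against 17.1% and 19.8% of all genes. The median log2 difference of the members was 0.14 in Scr and 0.06 in the cells labelled TRPM2 KO, and that of all genes -0.01 and 0.02. With 10 members, 1 member more or fewer moves a share by 10 percentage points, so the counts stand only as a description. For the interaction 0 of 10 members were called in limma, 2 had an unadjusted p below 0.05 (MYCN and MXI1) and edgeR and DESeq2 each called 1 (MYCN), where limma called 0.0261% of all genes, 0.0131% in each direction. The comparisons share libraries in pairs, so their values are given side by side and not as separate evidence.

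**Figure D2:**
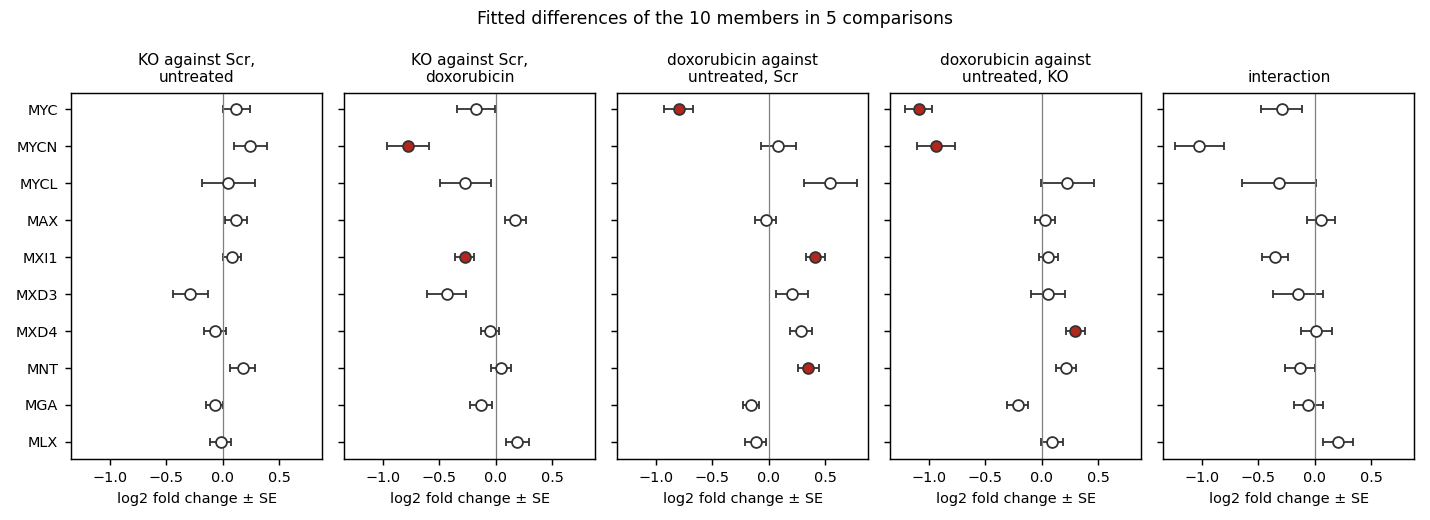
Log2 fold change (horizontal axis) with its SE (error bar) of each of the 10 members (vertical axis) in the 2 comparisons of genotype, the 2 of doxorubicin and the interaction, from the limma fit; filled red points passed an adjusted p of 0.05. MYC lies at -0.80 and -1.09 with doxorubicin, MYCN at 0.08 in Scr and -0.94 in the libraries labelled TRPM2 KO, and no member is filled in the untreated comparison or the interaction.

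The levels of the activating and the repressing partners of MAX were also summed per kilobase, as a description with no test. The sum of MYC, MYCN and MYCL was 19.9 to 30.8 normalized CPM per kb in the untreated Scr libraries and 26.0 to 28.9 in the untreated libraries labelled TRPM2 KO. With doxorubicin it was 14.3 to 21.1 in Scr and 11.5 to 15.4 in the libraries labelled TRPM2 KO. The treated libraries labelled TRPM2 KO lay below all 8 untreated libraries, and only the Scr groups overlapped between treatments. The sum of MXI1, MXD3, MXD4 and MNT was 42.7 to 47.8 and 42.7 to 48.2 in the untreated Scr libraries and those labelled TRPM2 KO. With the drug it was 56.8 to 59.7 in Scr and 48.3 to 53.1 in the libraries labelled TRPM2 KO, and these groups overlapped neither with each other nor with the untreated libraries. The gap between the lowest treated and the highest untreated library labelled TRPM2 KO, 48.3 against 48.2, was narrow.

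The make-up of the MYC family also differed. MYC made up 75.5% ± 2.35 (SD, n = 4) of the family sum in untreated Scr and 73.9% ± 2.24 in untreated libraries labelled TRPM2 KO, against 60.6% ± 5.45 and 69.3% ± 5.97 with doxorubicin. The share of MYCN was 21.5% ± 2.42 and 23.1% ± 2.09 untreated. With doxorubicin it was 32.3% ± 3.70 in Scr and 23.6% ± 5.88 in the libraries labelled TRPM2 KO, where it ran from 19.9% to 32.2%. In Scr the share of MYCN was thus higher with the drug while its level was not called, since MYC was the member that fell.

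**Figure D3:**
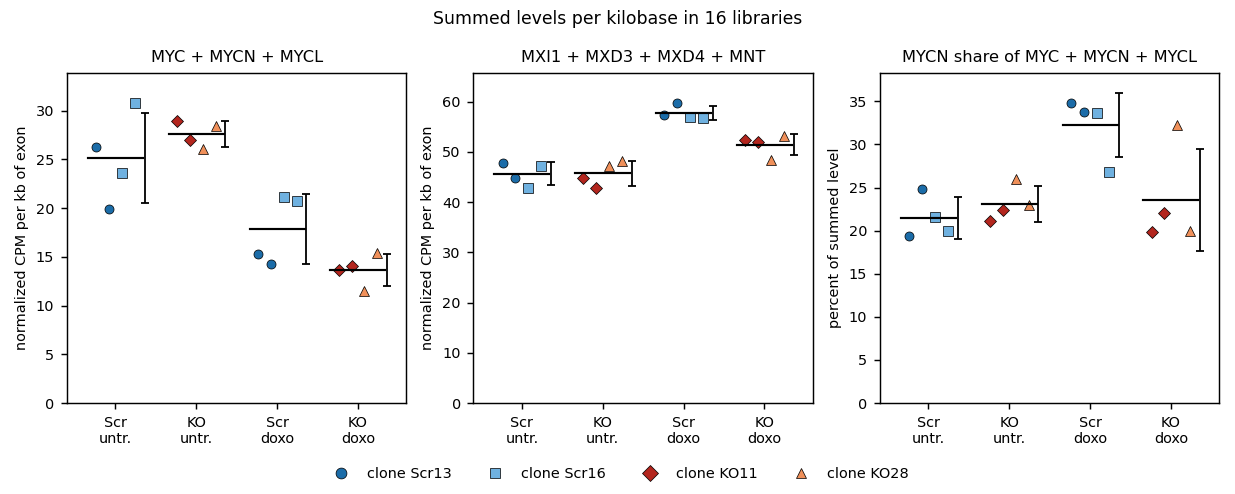
Summed level in normalized CPM per kb of exon (vertical axes, from 0) of MYC, MYCN and MYCL, of MXI1, MXD3, MXD4 and MNT, and the share of MYCN in the first sum in percent, in the 4 groups, with 1 point per library, the mean as a line and the SD as an error bar. The repressor sum is 56.8 to 59.7 in the treated Scr libraries, above all others, and the MYC family sum is lowest, 11.5 to 15.4, in the treated libraries labelled TRPM2 KO.

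Over the 16 libraries with the group means removed, the genes most like each member in their deviations were named by Pearson's r among 15324 genes, as a description of these libraries that share clones. They are the highest of 15324 values of r over few libraries. How high r would reach by chance was not tested, so no link between the genes follows. USP28, a deubiquitinase, was nearest to MYCN (r = 0.870), followed by MAP7D3 (0.864) and TSHZ2 (0.845). For MYC, TMEM35A (r = 0.903), PDHB (0.883) and LOX (0.871) were nearest. For MXD4 they were PTCHD1 (r = 0.876), YWHAZP2 (0.872) and BACE1 (0.865), and for MXD3 LINC02593 (r = 0.877), EVL (0.872) and MRGBP (0.871).

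Genes that MYC is known to raise or lower were counted on lists of their own. Of 30 genes of ribosome biogenesis, 0 were called higher and 8 lower in Scr (median log2 difference -0.21), and 0 higher and 14 lower in the cells labelled TRPM2 KO (median -0.25), beside medians of -0.01 and 0.02 and shares called lower of 5.24% and 8.35% over all genes. NOP16, a nucleolar protein, fell by 0.49 and 0.43 and UTP20, of the small subunit processome, by 0.51 and 0.37 on the log2 scale in the Scr cells and those labelled TRPM2 KO. Between genotypes 0 of the 30 were called after doxorubicin in limma, edgeR and DESeq2, and 2 had an unadjusted limma p below 0.05, against 8.69% of all genes called in limma. Of the 31 promoters listed for them, 38.7% held the E-box.

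Of 30 genes of metabolism and translation, 6 were called lower and 2 higher with the drug in Scr (median -0.14), and 11 lower and 0 higher in the cells labelled TRPM2 KO (median -0.16), against 5.24% and 8.35% of all genes called lower. TERT, the catalytic part of telomerase, fell by 0.73 on the log2 scale in the cells labelled TRPM2 KO, and CTPS1, of CTP synthesis, by 0.45 in Scr. After doxorubicin 5 of the 30 were called lower in TRPM2 KO-labelled libraries than in Scr, against 4.17% of all genes, among them SLC2A1, a glucose transporter (log2 fold change -0.55), and CAD, of pyrimidine synthesis (-0.28). In that comparison edgeR called 4 of the 30 and DESeq2 6. Between untreated genotypes 1 of the 30 was called, against 4.84% of all genes. It was PKM, higher in TRPM2 KO-labelled libraries (log2 fold change 0.25, limma adjusted p = 0.0230). Of 19 cell cycle genes, 12 were lower and 2 higher in Scr with the drug (median -0.32), and 14 lower and 1 higher in the cells labelled TRPM2 KO (median -0.53), against the same 5.24% and 8.35% of all genes called lower. MCM5, of the replicative helicase, fell by 0.77 and 0.93, and MDM2, which degrades p53 and is itself raised by it, rose by 0.89 and 1.33. Between treated genotypes 4 of the 19 were called, against 8.69% of all genes, with MCM2 (log2 fold change -0.93), CDT1 (-0.43) and E2F2 (-0.41) lower and MDM2 (0.72) higher in TRPM2 KO-labelled libraries, and MCM2 was also lower between untreated ones (-0.75). An E2F form occurred in 50% of the 20 promoters of this list and the E-box in 20%.

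Of the genes that MYC is known to lower, 6 of 11 tested rose and 0 fell in Scr (median 0.32), and 8 of 12 rose and 0 fell in the cells labelled TRPM2 KO (median 0.52), beside 7.1% and 11.3% of all genes called higher. In edgeR 7 of 11 and 5 of 12 were called. CDKN1A, the cyclin-dependent kinase inhibitor p21, rose by 2.58 and 2.43 and GADD45A, a growth arrest gene, by 1.55 and 1.68 on the log2 scale. Both are also well-known p53 targets, and CDKN1A was higher in the libraries labelled TRPM2 KO before treatment (log2 fold change 1.27) and after it (1.13), while CDKN1B, another such inhibitor, was lower before treatment (-0.39).

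Partners and regulators of the members were counted in the same way, beside 5.24% of all genes called lower and 7.1% higher with doxorubicin in Scr, and 8.35% lower and 11.3% higher in the cells labelled TRPM2 KO. Of 15 MYC cofactors, 4 were lower with doxorubicin in Scr and 5 in the cells labelled TRPM2 KO, with WDR5, which holds MYC on chromatin, at -0.32 and -0.41. Of 10 corepressors of the MXD proteins and MNT, HDAC2, a histone deacetylase, fell by 0.29 on the log2 scale in the cells labelled TRPM2 KO. Of 12 genes of PRC1.6, the complex of MGA, 3 fell in each genotype, with CBX3 at -0.40 and -0.26. Of 6 MLX and MondoA target genes, 2 rose in Scr and 3 in the cells labelled TRPM2 KO, with KLF10 at 0.50 and 0.35.

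Of 16 genes that control the turnover of MYC and MYCN protein, 2 fell with the drug in Scr and 5 fell and 1 rose in the cells labelled TRPM2 KO, against 12.3% and 19.6% of all genes called in either direction. AURKA and PLK1, mitotic kinases that protect MYCN from degradation, fell by 0.44 and 0.64 in the latter, and FBXW7, the ubiquitin ligase subunit that marks MYC proteins for degradation, rose by 0.40. SKP2 and CIP2A, also of this list, fell by 0.29 and 0.34 in Scr and by 0.55 and 0.35 in the cells labelled TRPM2 KO. The sum of these changes for MYC and MYCN protein was not tested. After doxorubicin 3 of the 16 were called between genotypes, against 8.69% of all genes: both kinases lower in TRPM2 KO-labelled libraries than in Scr (log2 fold change -0.45 for AURKA and -0.69 for PLK1) and TRIM32, a ubiquitin ligase, higher (0.64). PLK1 was the 1 gene of these lists whose interaction passed (-0.73, SE 0.132, limma adjusted p = 0.0294), and that call was lost without KO11, Scr16 or KO28.

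**Figure D4:**
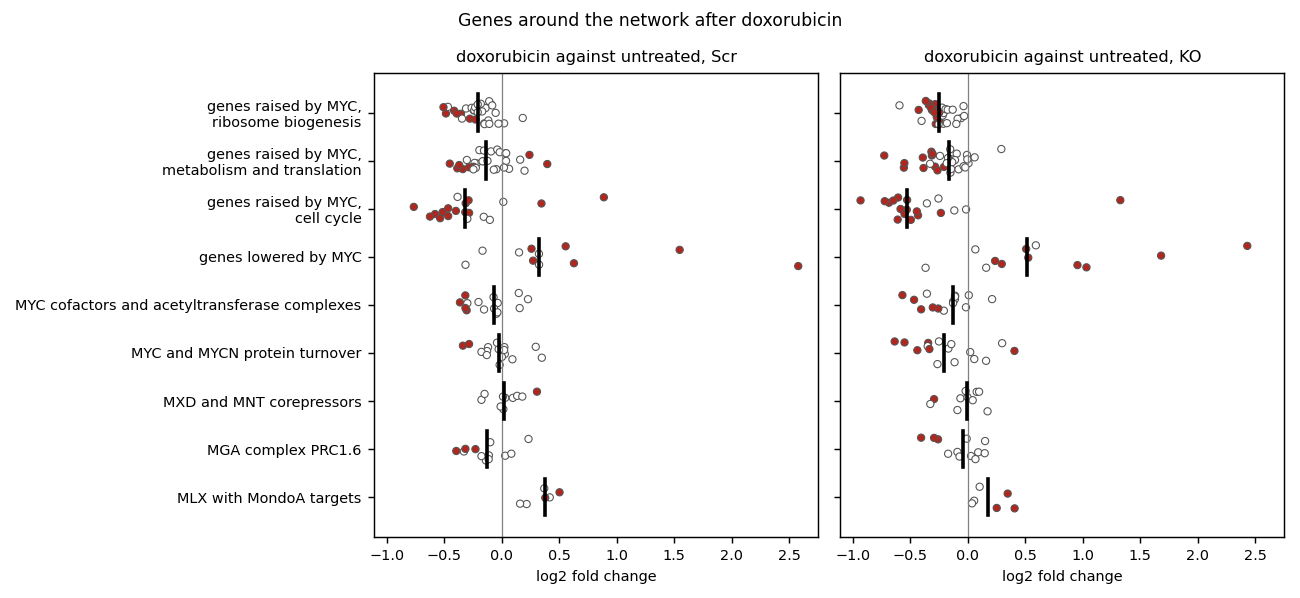
Log2 fold change with doxorubicin (horizontal axis) of the tested genes of 9 lists (vertical axis) in the Scr cells (left) and those labelled TRPM2 KO (right), with 1 point per gene (red, adjusted p under 0.05 in limma), the list median as a black bar and vertical jitter without meaning. The medians of the cell cycle list are -0.32 and -0.53 and those of the genes lowered by MYC 0.32 and 0.52.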

How the data were processed

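RNA was measured in 16 libraries, 4 per group. Per the submitters' processing notes, bcl2fastq, HISAT2 2.1.0, HTSeq and edgeR were used with GRCh38; whether counting used strand is not given in the sources used here. The authors deposited 2 tables of CPM signal values scaled by a normalization factor per library (0.974 to 1.03), and 100% of values came out as whole reads within 0.001 read. Deposited columns with fold changes and p-values of the authors' own comparison were not used, and 0 value columns lacked a sample. Gene names were matched for 95% of 26410 identifiers and GENCODE 29 annotation for 95.9%. Some listed genes are not reported here.

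The main test was limma 3.58.1 (R 4.3.3) on log2(normalized CPM + 1), with an abundance trend, over genes at 1 CPM or more in at least 4 libraries, with Benjamini-Hochberg adjustment over all genes tested and a threshold of 0.05. Fold changes on this scale understate the change of low genes. Each comparison of genotypes used the 8 libraries of 1 treatment with no clone term, each comparison of doxorubicin the 8 libraries of 1 genotype with clone as a fixed term, and the interaction all 16 with clone as a fixed term. On the recovered reads edgeR 4.0.16 (quasi-likelihood) called 636, 1193, 1661, 2694 and 10 genes and DESeq2 1.42.0 called 862, 1457, 2113, 3005 and 53, in the order untreated genotypes, treated genotypes, doxorubicin in Scr, doxorubicin in the cells labelled TRPM2 KO, and interaction. Tested on simulated data with 200 genes changed by a log2 value of 1, the limma fit recovered 92.5%, 95.0%, 89.5%, 93.0% and 76.5% of them in that order. Of its calls on these simulated data, 4.64%, 6.86%, 4.79%, 7.00% and 7.27% were false in the same order. Between treated genotypes, with doxorubicin in the cells labelled TRPM2 KO and for the interaction, this lay above the threshold of 0.05. The changed genes were drawn only from the more abundant genes, and no clone effect was simulated. These shares therefore do not cover low genes or the spread between clones. Replicate libraries of a clone differed by more than sampling noise (chi-square per gene 7.79 to 16.9). The rule for named genes took every member, TRPM2, MXD1, MLXIP, MLXIPL, TXNIP and ARRDC4, from each other list up to 3 called genes in each direction with the largest change, and the 3 genes most like MYCN, MYC, MXD3 and MXD4; COL1A1 and VIM were named after their values were seen. The members and the lists were chosen with earlier results of these data known.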

Additional observations from a re-analysis of the deposited data

Results flagged for a closer look

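In 3 of 40 groups of 4 libraries tested, 1 library of a member stood far from the other 3, by the gap to its nearest neighbour as a share of the range of the group; chance alone gives about 1 in 20. For MYCN it was Scr16 untreated replicate 2 (16.0 normalized CPM against 12.8 to 13.3, share 0.866). For MYCL it was Scr13 with doxorubicin replicate 1 (7.90 against 5.42 to 5.68, share 0.895). For MXD3 it was KO28 untreated replicate 2 (28.7 against 19.6 to 20.3, share 0.917).

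The response of PLK1 to doxorubicin differed between genotypes by the interaction test itself (log2 difference -0.73, SE 0.132, limma adjusted p = 0.0294). It was lost in 9 of 16 fits without 1 library (limma adjusted p up to 0.110), without KO11 (0.293), Scr16 (0.614) or KO28 (0.159), without the filter on low values (0.219) and without the clone term (0.126), and the direction was the same in each of these fits.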

How the results depend on the processing

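Each genotype was seen in 2 clones. Called members that lost their call without 1 clone were MYCN and MXI1 between treated genotypes, MYC, MXI1 and MNT with doxorubicin in Scr, and MXD4 with doxorubicin in the cells labelled TRPM2 KO, with the values given above. With no filter on low values, MXI1 between treated genotypes (limma adjusted p = 0.0803), MNT in Scr (0.0713) and MXD4 in the cells labelled TRPM2 KO (0.0573) were lost too, and on clone means MXD4 in Scr passed (0.00244).

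The count of members called between treated genotypes was 1 with no filter or on clone means and 0 to 3 when a library or clone was left out. It was 0 to 4 with doxorubicin in Scr (0 without Scr13) and 2 to 5 in the cells labelled TRPM2 KO (5 without KO28 doxorubicin replicate 1). For the interaction it was 1 in edgeR and in DESeq2.

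Genes called were 368 between untreated genotypes and 831 with doxorubicin in Scr without the filter. For the interaction they were 2 without the filter, 20 with a pseudocount of 4, 10 in edgeR, 53 in DESeq2 and 20 on clone means. Leaving out a library or clone gave 327 to 796 (lowest without Scr16) between untreated genotypes, 510 to 1314 (without KO11) between treated ones, 234 to 1739 (without Scr13) in Scr, 924 to 2903 (without KO11) in the cells labelled TRPM2 KO and 0 to 19 (without KO11) for the interaction.

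Between clones, the replicate numbers did not pair libraries (correlation of deviations between clones of the same number -0.112 to 0.106). Within a clone, the median correlation between treatments was 0.071 for the same number and 0.016 for other numbers. Whether the numbers pair libraries within a clone was not tested. With the replicate block, 25 genes and 1 member (MYCN, limma adjusted p = 0.0491) were called for the interaction, and 697, 1365, 2113 and 2948 genes in the other comparisons, and no other call on a member changed.

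Signs changed only among differences that were not called. With library size alone MAX with doxorubicin in the cells labelled TRPM2 KO was -0.0055. Leaving out a library or clone, log2 differences between untreated genotypes ran from -0.018 to 0.26 for MYC, -0.066 to 0.15 for MYCL, -0.0052 to 0.24 for MAX, -0.14 to 0.016 for MXD4, -0.0017 to 0.35 for MNT and -0.13 to 0.092 for MLX. Between treated genotypes they ran from -0.51 to 0.16 for MYC, -0.11 to 0.0056 for MXD4 and -0.014 to 0.10 for MNT. With doxorubicin they ran from -0.092 to 0.039 for MAX in Scr and, in the cells labelled TRPM2 KO, from -0.023 to 0.065 for MAX, -0.15 to 0.26 for MXD3 and -0.013 to 0.20 for MLX. Interactions ran from -0.012 to 0.12 for MAX, -0.35 to 0.058 for MXD3, -0.10 to 0.13 for MXD4, -0.27 to 0.0058 for MNT and -0.18 to 0.043 for MGA. The cause of these changes was not tested.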

Other observations

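Among the adrenergic markers, TBX2, a transcription factor of neuroblastoma cells, was called higher in the libraries labelled TRPM2 KO both untreated (log2 fold change 0.35, limma adjusted p = 0.0236) and after doxorubicin (0.45, limma adjusted p = 0.000847). With the drug, DDC, an enzyme of catecholamine synthesis, fell by 0.55 in Scr and by 0.41 in the cells labelled TRPM2 KO, and ISL1, a neuronal transcription factor, by 0.27 and 0.38 on the log2 scale. HAND2 rose by 0.31 and 0.21. CD44, a surface marker of the mesenchymal state, rose by 1.66 with doxorubicin in the cells labelled TRPM2 KO (limma adjusted p = 3.22e-06), and COL1A2, a fibrillar collagen chain, fell by 0.98 there (limma adjusted p = 0.0205).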
